A study of Mus musculus with 8 samples.

Results

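Imprinted genes are read mainly from 1 parental chromosome, some of them in certain tissues only. Here 36 mouse genes known for imprinting were followed through a deposited table of 29614 RefSeq transcripts and 23483 genes. A gene was represented by its transcript with the highest total count. In all, 35 of the 36 had a row, 22 of them paternally expressed, 12 maternally expressed and 1, Gnas, of an allele that depends on the promoter, at 20 loci. H19, the maternally expressed RNA beside Igf2, was not analysed here. After a filter on low counts 33 genes were tested, since Peg13 and Nap1l5 had too few counts. The allele assignments are textbook knowledge, because the counts do not separate the alleles. Whether each gene is imprinted in these cells was not measured.

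The cells were of the C57BL/6 strain at 5.5 mM glucose, with 2 libraries in each of 4 groups. Undifferentiated embryonic stem cells (mESC) were kept with the cytokine LIF. Untreated Sca1 cells came from such cells after 4 days without LIF on gelatin, were collected with magnetic beads against Sca1 at a purity over 80%, and were then grown without LIF. The NTC group was Sca1 cells carrying a lentiviral shRNA that targets no gene. The knock-down group was Sca1 cells carrying a lentiviral shRNA against Set7, a lysine methyltransferase encoded by Setd7, and these transduced groups had also been selected with puromycin at 1 µg per ml, which the untreated cells had not. The series is about Set7 in the differentiation of stem cells into smooth muscle.

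Most imprinting, though not all, is set by DNA methylation that is laid down in the egg or sperm at control regions. It is kept on that parental copy through later divisions. Zinc finger proteins such as ZFP57 bind the methylated copy and hold its silent state with the co-repressor TRIM28. Many paternally expressed genes, such as Igf2, Peg3 and Dlk1, favour growth of the fetus and placenta, and several maternally expressed ones, such as Igf2r, Cdkn1c and Grb10, restrain it. The genes lie in clusters, in which a long non-coding RNA from a parental copy often silences its neighbours on the same copy.

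Promoter windows of 300 bases (250 before to 50 after the annotated start) were found in RefSeq for 28 of the genes, on build GRCm38.p6. They were searched on both strands for TGCCGC, the hexamer bound by ZFP57 when methylated, and for CCATNTT, a core of the motif of the factor YY1. At least 1 TGCCGC lay in the windows of 10 of these 28 genes (35.7%), some of which have several windows. Counted by window the shares were 11 of 45 (24.4%) among the imprinted genes and 3813 of 32851 (11.6%) over all RefSeq promoters. CCATNTT was present in 6 of the 45 windows (13.3%) and in 16.1% of all promoters. The imprinted windows held a median of 11 CpG dinucleotides against 7 over all promoters, and the hexamer itself contains a CpG. A match describes the letters of a window and shows no binding. The 6 windows printed here each hold TGCCGC and belong to genes whose levels went different ways below: Mest, Igf2, Nnat and Grb10 rose with differentiation and fell with the knock-down, Meg3 fell with the knock-down only, and Snrpn rose with differentiation only. Capitals mark TGCCGC or its reverse complement GCGGCA, and CCATTTT where CCATNTT was found.
Mest (chr6:30737800-30738099, plus strand): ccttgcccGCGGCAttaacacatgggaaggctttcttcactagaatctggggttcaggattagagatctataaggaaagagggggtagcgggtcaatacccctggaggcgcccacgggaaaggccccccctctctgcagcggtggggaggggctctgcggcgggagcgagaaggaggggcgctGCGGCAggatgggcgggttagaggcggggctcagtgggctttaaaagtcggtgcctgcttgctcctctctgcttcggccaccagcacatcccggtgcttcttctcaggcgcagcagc
Igf2 (chr7:142661222-142661521, minus strand): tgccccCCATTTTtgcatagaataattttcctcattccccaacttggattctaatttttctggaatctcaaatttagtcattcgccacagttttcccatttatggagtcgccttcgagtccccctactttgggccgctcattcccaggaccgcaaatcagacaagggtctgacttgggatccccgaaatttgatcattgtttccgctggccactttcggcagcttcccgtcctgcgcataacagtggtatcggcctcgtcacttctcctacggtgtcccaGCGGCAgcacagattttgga
Nnat (chr2:157559828-157560127, plus strand): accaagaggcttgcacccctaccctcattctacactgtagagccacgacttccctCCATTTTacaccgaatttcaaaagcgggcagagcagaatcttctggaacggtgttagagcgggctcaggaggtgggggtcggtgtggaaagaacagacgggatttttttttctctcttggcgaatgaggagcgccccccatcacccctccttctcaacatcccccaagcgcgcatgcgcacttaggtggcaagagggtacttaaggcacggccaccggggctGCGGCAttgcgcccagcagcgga
Grb10 (chr11:12037371-12037670, minus strand): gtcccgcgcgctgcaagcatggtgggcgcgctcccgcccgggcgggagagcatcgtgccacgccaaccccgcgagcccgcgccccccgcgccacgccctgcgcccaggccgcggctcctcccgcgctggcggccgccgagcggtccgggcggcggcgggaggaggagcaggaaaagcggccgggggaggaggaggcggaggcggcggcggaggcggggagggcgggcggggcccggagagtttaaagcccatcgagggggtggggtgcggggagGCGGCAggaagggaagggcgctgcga
Meg3 (chr12:109540746-109541045, plus strand): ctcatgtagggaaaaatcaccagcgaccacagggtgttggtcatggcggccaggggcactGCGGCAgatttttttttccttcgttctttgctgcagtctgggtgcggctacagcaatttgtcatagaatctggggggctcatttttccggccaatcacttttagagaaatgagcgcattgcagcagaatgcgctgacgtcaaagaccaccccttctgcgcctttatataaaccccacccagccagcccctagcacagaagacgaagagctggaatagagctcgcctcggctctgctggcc
Snrpn (chr7:60005150-60005449, minus strand): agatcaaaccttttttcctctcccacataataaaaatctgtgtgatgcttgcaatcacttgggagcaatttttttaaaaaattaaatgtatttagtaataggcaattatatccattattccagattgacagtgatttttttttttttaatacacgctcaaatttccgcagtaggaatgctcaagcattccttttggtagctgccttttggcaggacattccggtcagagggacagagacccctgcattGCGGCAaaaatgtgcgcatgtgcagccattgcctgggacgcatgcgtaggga
Mest held 2 copies of the hexamer and Grb10 45 CpG dinucleotides, against 7 CpG in Snrpn. Igf2 and Nnat each held 1 match to both motifs. The windows of Peg3 and Usp29, which point away from each other, share 263 bases, so these genes start close together on opposite strands.

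Levels are counts scaled by TMM to library size (CPM), and a gene was called at an adjusted p under 0.05 by edgeR's quasi-likelihood F test, with Benjamini-Hochberg adjustment over 13966 genes. The verbs rose and fell are used for calls only, and values after ± are standard errors (SE) of log2 fold changes. Counts summed over genes ranged from 2507938 to 5080266 per library. The labels do not say that the libraries of a group were separate cultures, so a p-value here reflects only how these samples scattered. Between replicates, chi-square per degree of freedom over counting noise was 49.7 (mESC), 36.9 (untreated), 1.5 (NTC) and 1.99 (knock-down). Pearson correlations of log CPM between replicates lay closer together, at 0.978, 0.967, 0.990 and 0.987 in the same order. The 45S pre-ribosomal RNA row took 11.5% and 12.0% of counts in mESC replicate 2 and untreated replicate 2, which share library code 56. Elsewhere its share was 0.403 to 1.62%. The chi-square values were not computed without this row, so they do not show how widely the other genes scattered.

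For the targeted gene, Setd7, the CPM values were 11.2 and 16.5 (mESC), 76.3 and 66.3 (untreated), 60.7 and 66.6 (NTC) and 14.0 and 10.8 (knock-down). The knock-down libraries thus lay below all untreated and NTC libraries. Ly6a, which encodes the sorted surface protein Sca1, stood at 4.42 to 13 CPM in all 8 libraries and differed by 0.24 ± 0.39 on the log2 scale between untreated Sca1 cells and mESC (edgeR adjusted p = 0.671). The stem cell factor Pou5f1 stood at 575 and 844 CPM in mESC and at 542 to 697 CPM in the other groups. In bulk RNA, fewer cells of a type and less RNA per cell cannot be told apart.

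**Figure D1:**
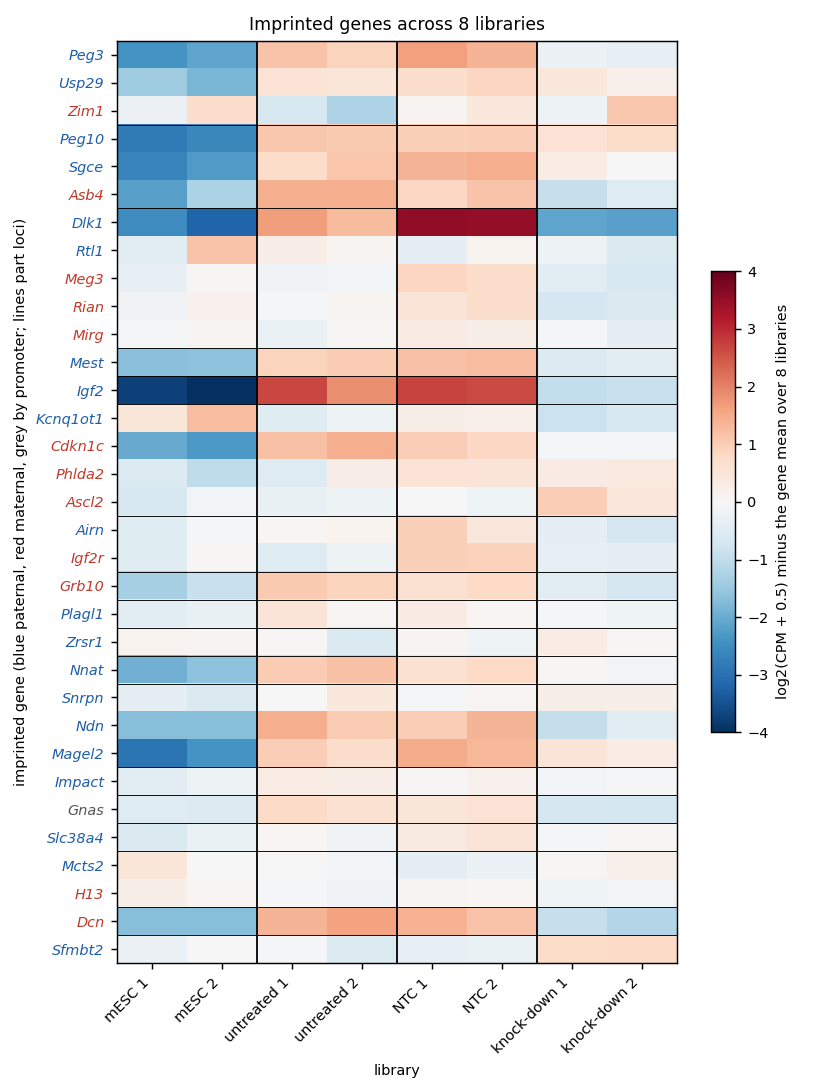
Each row is 1 of the 33 tested imprinted genes and each column 1 of the 8 libraries; colour is log2(CPM + 0.5) minus the gene's mean over the 8 libraries, from blue (low) to red (high), and horizontal lines part the loci. Igf2, Dlk1, Peg3, Peg10 and Mest are low in both mESC libraries and high in untreated and NTC libraries, while Zrsr1, H13 and Mcts2 change little in colour.

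Untreated Sca1 cells were compared with mESC to see what happened to imprinted genes as the stem cells differentiated. Most rose, among them the paternally expressed genes Igf2, 80.0-fold higher, Dlk1, 21.9-fold, Peg10, 13.2-fold, Peg3, 9.75-fold, and Mest, 6.13-fold. The maternally expressed RNAs of the Dlk1-Dio3 cluster did not pass the test. In all, 20 of 33 tested imprinted genes were higher, against 18.7% of all 13966 tested genes, and 1 was lower, against 16.8%. The median log2 fold change was 0.69 over the imprinted genes and -0.01 over all tested genes. By expressed allele, 14 of 20 tested paternally expressed genes rose (median 1.44) and 5 of 12 maternally expressed genes rose (median 0.06), and the difference between these classes was not tested. Asb4, Magel2 and Dcn passed the low-count filter only through groups in which they were high, so they had to differ. Without them 17 of 30 rose (median 0.64), by allele 13 of 19 paternally expressed (median 0.71) and 3 of 10 maternally expressed (median -0.01).

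Igf2 (NM_001122736, chromosome 7), the fetal insulin-like growth factor, measured 12.6 and 9.02 CPM in mESC and, after differentiation, 1101 and 627 CPM. It rose by 6.32 ± 0.28 on the log2 scale (n = 2 per group; edgeR's quasi-likelihood F test, Benjamini-Hochberg adjusted p = 1.11e-08). The groups lay far apart, although the untreated libraries themselves differed widely. Within library codes 34 and 56 of the labels, each with 1 library per group, the rise was 6.39 and 6.04.

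Dlk1 (NR_033813, chromosome 12), a membrane protein with EGF-like repeats that holds back adipocyte formation, measured 5.95 and 3.52 CPM in mESC and 117 and 89.2 CPM after differentiation. The rise was 4.45 ± 0.21 (edgeR adjusted p = 5.13e-11), and the groups did not overlap. Its maternally expressed neighbour Meg3 (NR_027652), a long non-coding RNA, stood at 476 and 625 CPM in mESC and 546 and 561 CPM in untreated cells. Meg3 differed by 0.01 ± 0.14 (edgeR adjusted p = 0.977), with overlapping groups. Rian, which hosts small nucleolar RNAs, stood at 196 and 247 against 204 and 233 CPM, and Mirg, which hosts microRNAs, at 47.2 and 52.6 against 40.5 and 50.4 CPM. Neither passed the test (-0.02 ± 0.13 and -0.15 ± 0.17). The ratio of Dlk1 to Meg3 counts went from 0.013 and 0.006 in mESC to 0.214 and 0.159, while that of Rian to Meg3 stayed between 0.374 and 0.416 in these 4 libraries. Rtl1, a retrotransposon-derived gene of placental vessels, stood at 3.43 and 11.2 CPM in mESC and 5.87 and 5.30 in untreated cells, with overlapping groups.

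Peg3 (NM_008817, chromosome 7), a large zinc finger protein, measured 59.5 and 71.5 CPM in mESC against 694 and 584 CPM in untreated cells, a rise of 3.29 ± 0.15 (edgeR adjusted p = 2.2e-11). Usp29, a ubiquitin protease gene that starts beside Peg3, stood at 14.0 and 10.3 against 55.9 and 53.0 CPM and rose by 2.17 ± 0.19. Usp29 counts were 0.235 and 0.145 of Peg3 counts in mESC and 0.081 and 0.091 in untreated cells. Both genes were thus higher in each untreated library than in each mESC library. Zim1, the maternally expressed zinc finger gene of that cluster, stood at 0.44 to 3.08 CPM in these libraries and did not pass (-1.59 ± 0.80, adjusted p = 0.135).

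Peg10 (NM_001040611, chromosome 6), a retrotransposon-derived gene needed for the placenta, measured 172 and 200 CPM in mESC against 2491 and 2441 CPM in untreated cells. It rose by 3.73 ± 0.14 (edgeR adjusted p = 4.22e-12). Sgce, encoding epsilon-sarcoglycan of the dystrophin-associated complex, starts next to Peg10 and rose from 3.21 and 4.40 to 38.3 and 49.5 CPM (3.5 ± 0.25). Sgce counts were 0.015 to 0.022 of Peg10 counts in these 4 libraries. Asb4, a maternally expressed ubiquitin ligase adaptor of the cluster, had 2 counts in mESC and 31 in untreated cells, a ratio of 25.1 with a 95% counting interval of 6.39 to 217. Per kilobase of transcript, Peg10 was the highest of the 34 imprinted genes with a known length in untreated cells, at 370 CPM per kb, followed by Mest at 328, Meg3 at 292 and Igf2 at 218. In mESC the order was led by Meg3 at 290 CPM per kb and Slc38a4 at 90.7, with Peg10 at 27.9 and Igf2 at 2.72.

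Mest (NM_001252293, chromosome 6), which encodes a protein of the alpha/beta hydrolase fold, stood at 125 and 130 CPM in mESC and 743 and 819 CPM in untreated cells (2.62 ± 0.12; edgeR adjusted p = 4.57e-11). Nnat, encoding the small membrane protein neuronatin, stood at 8.47 and 10.3 against 68.0 and 76.0 CPM (2.93 ± 0.19). Ndn, encoding the MAGE family protein necdin, stood at 5.04 and 5.06 against 48.5 and 35.8 CPM (3.07 ± 0.26). In none of these genes did the groups overlap. Snrpn, which encodes a core protein of splicing particles and lies in the same cluster as Ndn, rose less, from 102 and 86.3 to 132 and 175 CPM (0.69 ± 0.14), so that Ndn counts went from 0.049 and 0.059 of Snrpn counts to 0.369 and 0.205. Magel2, another MAGE gene of that cluster, had 1 count in mESC and 36 in untreated cells (ratio 58.3, 95% counting interval 9.82 to 2367). Plagl1, a zinc finger regulator of other imprinted genes, stood at 12.8 and 14.1 against 25.3 and 18.1 CPM (0.71 ± 0.23). Impact, an inhibitor of the stress kinase GCN2, stood at 167 and 198 against 284 and 279 CPM (0.63 ± 0.12), and Slc38a4, an amino acid transporter, at 319 and 394 against 503 and 426 CPM (0.38 ± 0.13).

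Cdkn1c, the growth-restraining cyclin-dependent kinase inhibitor p57, rose from 6.41 and 5.28 to 62.4 and 76.9 CPM (3.56 ± 0.21, edgeR adjusted p = 7.73e-10). Grb10, an adaptor that dampens insulin receptor signalling, rose from 56.1 and 76.8 to 290 and 261 CPM (2.05 ± 0.15). Gnas, which encodes the stimulatory G protein alpha subunit, rose from 187 and 182 to 454 and 411 CPM (1.23 ± 0.11). These 3 genes were higher in both untreated libraries than in any mESC library. Igf2r, the receptor that clears IGF2 to lysosomes, did not pass, at 263 and 374 against 258 and 316 CPM (-0.15 ± 0.15). Nor did Airn, the non-coding RNA that overlaps it, at 44.6 and 61.8 against 66.1 and 69.4 CPM (0.34 ± 0.19). Phlda2, a restrainer of placental growth, stood at 17.9 and 12.8 against 18.2 and 31.4 CPM (0.66 ± 0.25, adjusted p = 0.0455), and Ascl2, a trophoblast transcription factor, at 1.83 to 2.86 CPM in these 4 libraries. Dcn, encoding the matrix proteoglycan decorin, had 0 counts in mESC and 22 in untreated cells, which is at least 11.9-fold higher with 3 counts put in the mESC group.

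Kcnq1ot1 (NR_001461, chromosome 7), the non-coding RNA that silences the cluster holding Cdkn1c, was the single imprinted gene to fall. It stood at 44.0 and 74.4 CPM in mESC and 22.3 and 27.4 CPM in untreated cells (-1.27 ± 0.23; edgeR adjusted p = 0.000326). Its ratio to Cdkn1c counts went from 6.86 and 14.1 to 0.356 in both untreated libraries. The row of Kcnq1, the potassium channel gene in which Kcnq1ot1 lies on the other strand, stood at 44.4 and 76.4 against 23.2 and 27.4 CPM, so close to Kcnq1ot1 that the rows may hold the same reads. Without mESC replicate 2 the fall of Kcnq1ot1 was -0.84 and still called.

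Within library code 34 and within code 56, all 21 called genes kept their sign, and 18 of the 21 stayed called whichever of the 8 libraries was left out. Phlda2 differed by 0.03 in code 34 and 1.26 in code 56, and lost its call without mESC replicate 2, untreated replicate 2 or any NTC or knock-down library, with log2 values of 0.26 to 1.04 over all leave-outs. Plagl1 lost it without mESC replicate 1 or untreated replicate 1 (0.43 without the latter), and Slc38a4 without mESC replicate 1 (0.24), untreated replicate 1 or any NTC or knock-down library. Slc38a4 differed by 0.66 in code 34 and 0.11 in code 56. The calls of Asb4, Magel2 and Dcn support nothing, for the reason given above. Nor do the signs within a code, because the groups of each called gene did not overlap and so fixed them.

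**Figure D2:**
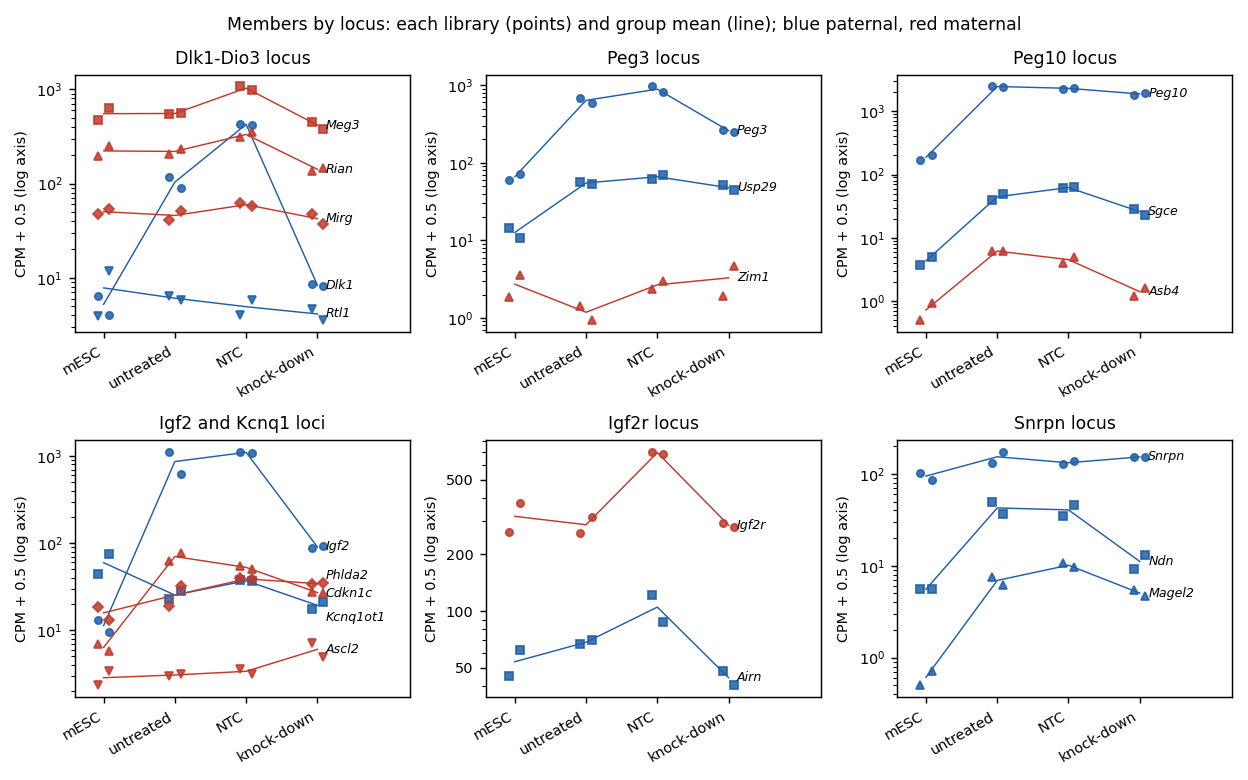
CPM + 0.5 on a log axis in each library (points, 2 per group) with the group mean (line) for the genes of 6 panels of loci, in blue where paternally and in red where maternally expressed. In the Dlk1-Dio3 panel Dlk1 spans 3.52 to 429 CPM while Meg3 stays between 382 and 1077 CPM.

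Knock-down cells were compared with NTC cells to see which imprinted genes differed when Set7 was depleted. Nearly all that changed fell: Dlk1 was 53.9-fold lower, Igf2 12.3-fold, Ndn 3.67-fold, Peg3 3.44-fold and Mest 3.28-fold. The maternally expressed RNAs Meg3 and Rian and the receptor Igf2r, which had not passed with differentiation, were also lower by 2.34-fold to 2.47-fold. Sfmbt2, a Polycomb group gene, was the single gene to rise. In all, 20 of 33 tested imprinted genes were lower, against 10.1% of all tested genes, and 1 was higher, against 4.25%. The median log2 fold change was -0.94, against 0.00 over all tested genes. Of the paternally expressed genes 11 of 20 fell (median -0.62), and of the maternally expressed 8 of 12 (median -1.1), with no test of the difference. Without Asb4, Magel2 and Dcn 17 of 30 fell (median -0.64), by allele 10 of 19 paternally expressed (median -0.48) and 6 of 10 maternally expressed (median -0.74).

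Dlk1 measured 429 and 420 CPM with the NTC construct against 8.06 and 7.69 CPM in knock-down cells. It fell by 5.75 ± 0.19 on the log2 scale (n = 2 per group; edgeR's quasi-likelihood F test, Benjamini-Hochberg adjusted p = 1.08e-12). Within codes 12 and 34, which hold 1 library of each group, the change was -5.65 and -5.68. In the same libraries Meg3 stood at 1077 and 981 against 450 and 382 CPM, a fall of 1.31 ± 0.14 (edgeR adjusted p = 3.45e-06). Both members of the cluster were lower in every knock-down library, and the ratio of Dlk1 to Meg3 counts was 0.398 and 0.428 in NTC against 0.018 and 0.020 in the knock-down. Rian fell from 312 and 351 to 136 and 146 CPM (-1.23 ± 0.13). Mirg stood at 61.5 and 57.1 against 47.3 and 36.7 CPM (-0.51 ± 0.17, adjusted p = 0.0461), and Rtl1 at 3.55 and 5.35 against 4.20 and 3.08 CPM, with no call.

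Igf2 measured 1126 and 1078 CPM in NTC against 86.9 and 92.8 CPM in knock-down cells (-3.62 ± 0.23; edgeR adjusted p = 5.71e-07), and its falls within codes 12 and 34 were -3.69 and -3.53. Igf2r, its clearance receptor, stood at 706 and 687 against 292 and 280 CPM (-1.29 ± 0.15; edgeR adjusted p = 7.02e-06). Airn, the overlapping RNA, stood at 122 and 86.9 against 47.6 and 39.8 CPM (-1.27 ± 0.18), so that the estimates for Igf2r and Airn lay within their errors of each other. In none of these did the groups overlap. Cdkn1c stood at 54.6 and 49.7 against 27.0 and 26.2 CPM (-0.97 ± 0.17), and Kcnq1ot1 at 36.9 and 36.1 against 17.2 and 20.4 CPM (-0.94 ± 0.23). The ratio of Kcnq1ot1 to Cdkn1c counts was 0.675 and 0.726 in NTC and 0.636 and 0.782 in the knock-down, which overlap. Phlda2, at 38.8 and 37.9 against 33.3 and 34.3 CPM, and Ascl2, at 3.07 and 2.67 against 6.65 and 4.40 CPM, did not pass (adjusted p = 0.639 and 0.173).

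Peg3 stood at 972 and 811 CPM in NTC and 267 and 252 CPM in the knock-down (-1.78 ± 0.13; edgeR adjusted p = 3.39e-08). Its neighbour Usp29 stood at 61.7 and 69.8 against 50.8 and 43.7 CPM and did not pass (-0.48 ± 0.16, adjusted p = 0.0512). Usp29 counts were 0.063 and 0.086 of Peg3 counts in NTC and 0.191 and 0.174 in the knock-down. Peg10, at 2290 and 2326 against 1786 and 1971 CPM, did not pass (-0.30 ± 0.13, adjusted p = 0.140), while Sgce fell from 60.0 and 63.3 to 28.0 and 22.6 CPM (-1.30 ± 0.18; edgeR adjusted p = 6.79e-05). When only the NTC and knock-down libraries were fitted, both Usp29 (-0.49, edgeR adjusted p = 0.000601) and Peg10 (-0.29, edgeR adjusted p = 0.000140) were called lower. Whether these neighbours differ in their change was not tested. Asb4 stood at 3.55 and 4.46 against 0.70 and 1.1 CPM (-2.05 ± 0.57), and Zim1 at 1.89 and 2.45 against 1.40 and 4.18 CPM, with no call.

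Mest stood at 910 and 949 CPM in NTC and 276 and 292 CPM in the knock-down (-1.71 ± 0.12; edgeR adjusted p = 1.28e-08). Grb10 stood at 216 and 245 against 102 and 89.5 CPM (-1.27 ± 0.14), and Gnas at 371 and 395 against 168 and 164 CPM (-1.21 ± 0.11). In each of these genes both knock-down libraries lay below both NTC libraries. Ndn fell from 34.7 and 45.5 to 8.76 and 12.5 CPM (-1.87 ± 0.23), Nnat from 50.8 and 58.0 to 34 and 30.6 CPM (-0.76 ± 0.16), and Magel2 from 10.2 and 9.14 to 4.90 and 4.18 CPM (-1.1 ± 0.34). Snrpn, of the same cluster as Ndn and Magel2, stood at 127 and 136 against 152 and 154 CPM and did not pass (0.21 ± 0.14, adjusted p = 0.348). Slc38a4 stood at 602 and 681 against 455 and 490 CPM (-0.44 ± 0.13). Dcn had 30 counts in NTC and 2 in knock-down cells, a ratio of 12.7 with a 95% counting interval of 3.23 to 110.

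Sfmbt2 (NM_001198808, chromosome 2), which encodes a histone-binding protein of a Polycomb complex and is imprinted in extraembryonic tissue, measured 156 and 160 CPM in NTC against 322 and 331 CPM in knock-down cells. It rose by 1.04 ± 0.14 (edgeR adjusted p = 4.29e-05), and by 1.04 in each of codes 12 and 34. In mESC it had stood at 164 and 196 CPM and in untreated cells at 183 and 132 CPM, so both knock-down libraries lay above all 6 others. Plagl1 (22.0 and 18.7 against 17.2 and 15.4 CPM), Impact (238 and 261 against 214 and 224 CPM) and Zrsr1, a splicing factor retrogene inside Commd1 (50.8 and 41.5 against 58.5 and 48.6 CPM), did not pass. Nor did Mcts2, a translation factor retrogene inside H13 (29.5 and 33.0 against 39.6 and 44.6 CPM), or H13 itself, a signal peptide peptidase gene (123 and 122 against 101 and 106 CPM). When only the compared groups were fitted, Impact (-0.19, edgeR adjusted p = 0.0374) and H13 (-0.23, adjusted p = 0.0301) were called lower, and Mcts2 (0.44, adjusted p = 0.00840) and Snrpn (0.22, adjusted p = 0.0302) higher. Mcts2 and H13 had not passed with differentiation either, at 54.3 and 37.9 against 38.9 and 35.3 CPM for Mcts2 and at 134 and 122 against 108 and 105 CPM for H13. Zrsr1 stood at 52.4 and 50.8 CPM in mESC and 49.1 and 31.4 CPM in untreated cells. Peg13 stood at 0 to 2.29 CPM and Nap1l5 at 0.22 to 1.33 CPM over the 8 libraries.

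All 21 calls kept their sign within codes 12 and 34, which groups without overlap fixed in advance. Mirg, Kcnq1ot1, Slc38a4, Asb4 and Magel2 lost their calls when any NTC or knock-down library was left out, Mirg standing at -0.32 without knock-down replicate 2. Nnat lost its call without NTC replicate 2 or knock-down replicate 2, and Dcn without knock-down replicate 2, at edgeR adjusted p of 0.0867 to 0.112. In the absence of knock-down replicate 2, 13 genes were lower in place of 20.

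**Figure D3:**
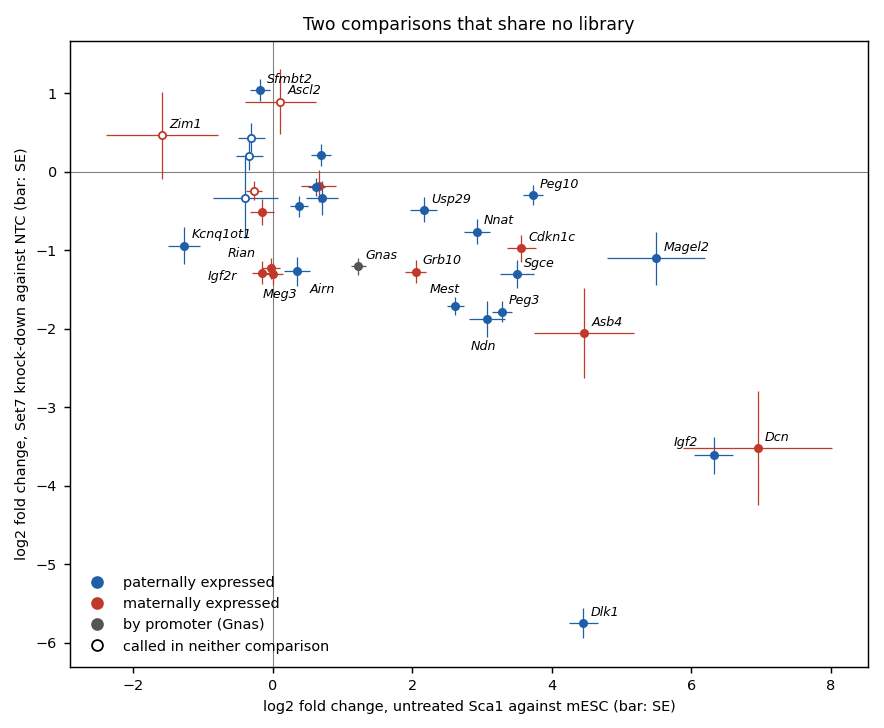
Log2 fold change of untreated Sca1 cells against mESC (horizontal axis) and of knock-down against NTC cells (vertical axis) for the 33 tested imprinted genes, with SE bars; open symbols passed in neither comparison. Igf2 and Dlk1 lie at the lower right (6.32 and -3.62, 4.45 and -5.75), Meg3, Rian and Igf2r lie below 0 near the vertical line, and the values of Asb4, Magel2 and Dcn rest on 0 to 2 counts in mESC.

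The comparisons of untreated cells with mESC and of knock-down with NTC cells share no library. Of the 33 tested imprinted genes, 14 rose in the former and fell in the latter, 6 rose in the former and did not pass in the latter, and 5 did not pass in the former and fell in the latter. The first pattern was found in 6.46% of all 13966 tested genes and, without Asb4, Magel2 and Dcn, in 11 of 30 imprinted genes. Kcnq1ot1 fell in both, Sfmbt2 was not called in the former and rose in the latter, and 6 passed in neither. The shares of these other patterns among all genes were not computed, so nothing particular to imprinted genes is read from their numbers. The 6 that rose and were not called in the knock-down were Usp29, Peg10, Phlda2, Plagl1, Snrpn and Impact, although Usp29, Peg10 and Impact were called lower and Snrpn higher when only the compared groups were fitted. The 5 that fell with the knock-down without a call in differentiation were Meg3, Rian, Mirg, Igf2r and Airn, of which all but Airn are maternally expressed.

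The knock-down was also set against mESC, to see how far the levels stood from those of stem cells. Igf2 was still 8.32-fold higher (3.06 ± 0.27; edgeR adjusted p = 7.56e-06), Peg10 10.1-fold, Peg3 3.95-fold and Mest 2.23-fold. Dlk1, at 8.06 and 7.69 CPM against 5.95 and 3.52 CPM, did not pass (0.73 ± 0.30, adjusted p = 0.0802), nor did Gnas (-0.15 ± 0.11). In all, 16 of 33 tested imprinted genes were higher than in mESC, against 13.5% of all tested genes, and 3 were lower, against 12.4%. The 16 include Magel2, which passed the low-count filter only through groups in which it was high, so its call supports nothing. The 3 were Kcnq1ot1 (-1.64 ± 0.23), Rian (-0.65 ± 0.13) and Meg3 (-0.40 ± 0.14, adjusted p = 0.0409), and only Kcnq1ot1 of these lay beyond 2-fold, against 5.04% of all tested genes called that far lower. Of the 14 genes that rose and then fell, 10 were higher than in mESC and 4, Asb4, Dlk1, Gnas and Dcn, were not called. The 14 had been chosen as higher than these same mESC libraries. The share among all genes of that pattern was not computed, so nothing particular to imprinted genes is read from the 10. Leaving out mESC replicate 2 or any NTC or knock-down library ended the call of Meg3 (-0.19 to -0.59 over the leave-outs), and 14 of the 19 calls stayed in every leave-out. The others were Ascl2, lost without any mESC, NTC or knock-down library, Grb10 (0.31 to 0.77), lost without mESC replicate 1 or either knock-down library, Ndn, lost without knock-down replicate 2, and Slc38a4, lost without mESC replicate 1 or any NTC or knock-down library. Asb4 had 7 counts in knock-down cells and 2 in mESC (ratio 4.21, 95% counting interval 0.802 to 41.6).

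The construct control itself differed from untreated cells, and so the control was checked for each gene. Dlk1 was 4.09-fold higher in NTC than in untreated Sca1 cells (2.03 ± 0.14; edgeR adjusted p = 6.13e-07), Igf2r 2.43-fold (1.28 ± 0.15; edgeR adjusted p = 0.000103), and Meg3 1.86-fold (0.89 ± 0.14). Rian (0.60 ± 0.13), Peg3 (0.48 ± 0.13) and Slc38a4 (0.46 ± 0.13) were also higher. These 6 of 33 stood against 3.88% of all tested genes, and 0 were lower, against 1.11%. Beyond 2-fold there were 2, Dlk1 and Igf2r, against 0.752% of all tested genes called that far higher. Igf2, Mest and Peg10 did not pass (0.35 ± 0.21, 0.25 ± 0.11 and -0.10 ± 0.13). In library code 34, the code these groups share, the 6 kept their sign, which groups without overlap fixed in advance. Dlk1 and Igf2r stayed called in every leave-out. Meg3 was lost without NTC replicate 1, Rian without untreated replicate 1 or either NTC library, and Peg3 and Slc38a4 without untreated replicate 2 or any NTC or knock-down library, at edgeR adjusted p of 0.0547 to 0.470. Construct, virus and puromycin cannot be told apart here.

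Set against untreated cells in place of NTC cells, the knock-down stood lower for 14 of the 20 genes that fell, Asb4 and Dcn among them. Over all tested genes 9.89% were called lower there. The 20 had been chosen as low in the same knock-down libraries, so the 14 cannot be set against that share. The share among all genes that fell was not computed. Dlk1 was lower by 3.72 ± 0.20, Igf2 by 3.27 ± 0.23, Ndn by 1.96 ± 0.24, Grb10 by 1.53 ± 0.15, Mest by 1.46 ± 0.12, Gnas by 1.38 ± 0.11 and Peg3 by 1.30 ± 0.13 on the log2 scale. Igf2r did not pass against untreated cells (-0.01 ± 0.15, edgeR adjusted p = 0.986), with 258 and 316 CPM there and 292 and 280 CPM in the knock-down. Meg3 (-0.41 ± 0.14, adjusted p = 0.0524), Mirg, Kcnq1ot1, Magel2 and Slc38a4 (0.02 ± 0.13, adjusted p = 0.929) did not pass either. Peg10 (-0.39 ± 0.13, adjusted p = 0.0421) and Impact (-0.36 ± 0.12, adjusted p = 0.0450) were lower than untreated cells but not called against NTC. Sfmbt2 was higher by 1.04 ± 0.14 against untreated cells as well, and 7.34% of all tested genes were called higher. These comparisons share the knock-down libraries, so their values are given side by side only.

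**Figure D4:**
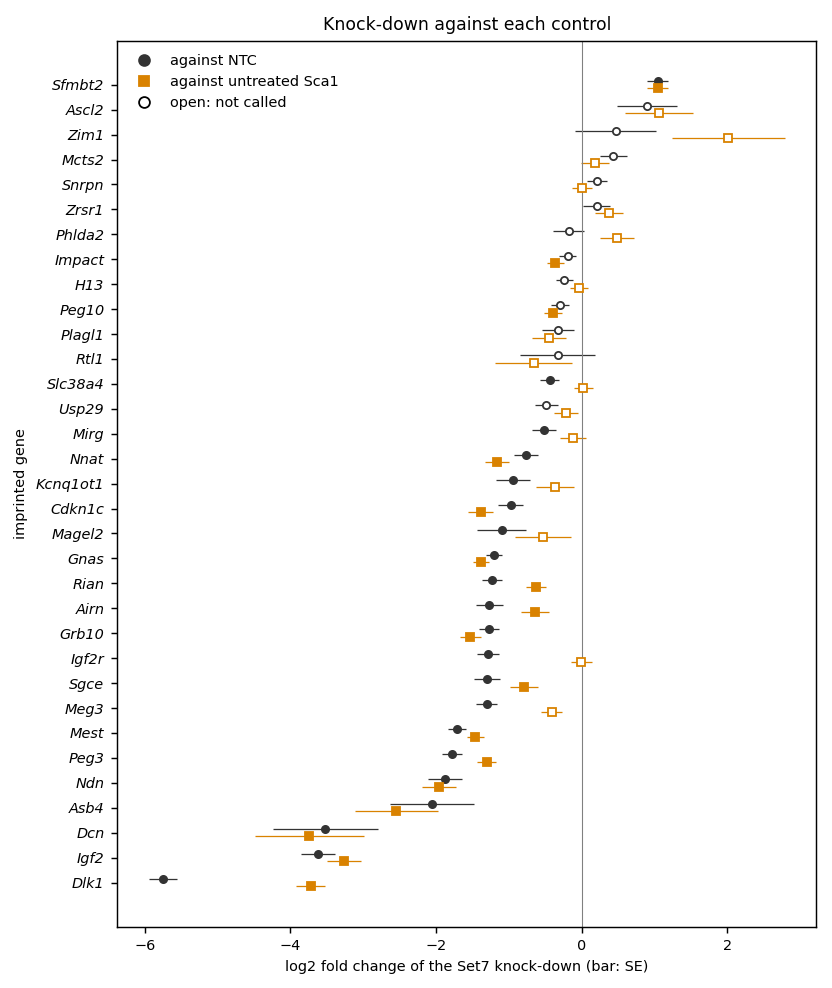
Log2 fold change of the knock-down against NTC (black circles) and against untreated Sca1 cells (orange squares) for each of the 33 tested imprinted genes, with SE bars and open symbols where not called. Igf2r stands at -1.29 against NTC and -0.01 against untreated cells, whereas Sfmbt2 stands at 1.04 in both and Dlk1 at -5.75 and -3.72.

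Genes for proteins that keep imprints were followed in the same libraries. Of 26 tested genes for imprint maintenance and DNA methylation, 5 were higher and 8 lower in untreated cells than in mESC (18.7% and 16.8% of all tested genes), with a median of -0.12. Zfp57 fell from 566 and 726 to 245 and 157 CPM (-1.68 ± 0.17; edgeR adjusted p = 1.35e-06). The methylcytosine dioxygenase gene Tet1 fell by 1.5 ± 0.13 and the pluripotency-linked zinc finger gene Zfp42 by 0.88 ± 0.12. Dppa3, which protects maternal methylation in the early embryo, rose by 2.35 ± 0.27, Tet3 by 1.76 ± 0.20 and the methyltransferase gene Dnmt3a by 1.1 ± 0.13. In the knock-down against NTC, 2 of the 26 rose, Dnmt3l (0.50 ± 0.11) and Eed (0.38 ± 0.12), and 1 fell, Tet3 (-1.38 ± 0.18). Over all tested genes 4.25% were called higher and 10.1% lower there, and the list's median was 0.09. Zfp57 stood at 318 and 331 against 345 and 330 CPM (0.05 ± 0.16). The maintenance methyltransferase gene Dnmt1 stood between 355 and 466 CPM in the 8 libraries.

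Genes that lie beside or around the imprinted ones, most of them not imprinted or imprinted in few tissues, were followed as well. Those that passed the low-count filter only through groups in which they were high were not taken out of the counts that follow. Of 33 tested neighbours, 5 were lower and 1 higher in the knock-down than in NTC cells (median -0.05; 10.1% and 4.25% of all tested genes), and 8 were higher and 5 lower in untreated cells than in mESC (median 0.12; 18.7% and 16.8% of all tested genes). The falls with the knock-down were of Osbpl5 (-1.62 ± 0.34), Cd81 (-0.56 ± 0.12), Casd1 beside Sgce (-0.85 ± 0.20), Blcap, which surrounds Nnat (-0.52 ± 0.13), and Kcnq1 (-0.88 ± 0.23), and the rise was of Slc38a2 (0.41 ± 0.13). With differentiation the amino acid decarboxylase gene Ddc and the actin nucleator gene Cobl, both beside Grb10, fell by 1.31 ± 0.22 and 1.56 ± 0.17, whereas Grb10 rose. Atp10a (2.64 ± 0.36) and Peg12 (2.01 ± 0.33), of the Snrpn cluster, Zim3 of the Peg3 cluster (1.51 ± 0.22) and Blcap (0.95 ± 0.14) rose. Reads of host and guest genes such as Blcap and Nnat, Airn and Igf2r, or H13 and Mcts2 may be shared where transcripts overlap, because nothing used here gives the strand or the counting method.

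In the IGF pathway around Igf2, 8 of 12 tested genes rose and 1 fell with differentiation (median 0.90), where 18.7% and 16.8% of all tested genes were called higher and lower. In the knock-down against NTC 6 fell and 0 rose (median -0.60), where 10.1% and 4.25% of all tested genes were called lower and higher. The binding protein genes Igfbp5 and Igfbp4, whose products capture IGF outside the cell, rose by 5.21 ± 0.39 and 2.51 ± 0.17 and fell by 2.82 ± 0.23 and 1.71 ± 0.15 in the knock-down. Irs1, the adaptor behind the insulin and IGF receptors, rose from 0.23 and 0.44 CPM in mESC to 24.4 and 23.9 CPM in untreated cells. Irs1 passed the low-count filter only through groups other than mESC, so it had to differ and its rise supports nothing. The 8 of 12 and the median of 0.90 include Irs1 and were not computed without such genes. In the knock-down Irs1 stood at 4.20 and 6.59 CPM, against 23.6 and 21.4 CPM in NTC (-2.0 ± 0.26). The receptor genes Igf1r (-0.66 ± 0.16) and Insr (-0.78 ± 0.21) and the RNA-binding protein gene Igf2bp3 (-0.76 ± 0.15) also fell there. Irs2 (3.05 ± 0.26), Igfbp3 (2.73 ± 0.25) and Igfbp2 (0.86 ± 0.14) rose with differentiation.

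Some lists of cell type markers moved in the same directions as most imprinted genes and others did not, and their part in the results was not tested. Over all tested genes, 18.7% rose and 16.8% fell with differentiation, and 10.1% fell and 4.25% rose with the knock-down. In NTC 3.88% were higher and 1.11% lower than in untreated cells. Markers that passed the low-count filter only through groups in which they were high had to differ. The marker counts were not computed without them, so they are not read against these shares. The largest log2 values with differentiation were 7.07 (smooth muscle), 9.93 (fibroblast and mesenchyme) and 7.04 (trophoblast). The lowest fibroblast and mesenchyme value with the knock-down was -9.70. Of 9 tested smooth muscle markers 9 rose with differentiation and 7 fell with the knock-down, with summed levels of 160 to 178 CPM in mESC, 1682 to 2201 in untreated, 1556 to 1587 in NTC and 558 to 574 in knock-down cells. Of 11 tested fibroblast and mesenchyme markers 8 rose and 2 fell with differentiation, 10 fell with the knock-down, and 6 were higher in NTC than in untreated cells. Their summed levels were 2208 to 2392, 2663 to 2835, 4912 to 5129 and 1708 to 1970 CPM in the same order. For comparison, the paternally expressed genes summed to 1373 to 1569, 5981 to 6676, 7292 to 7333 and 3878 to 4100 CPM, and the maternally expressed to 1200 to 1523, 1540 to 1648, 2544 to 2600 and 1111 to 1199 CPM. Of 10 tested trophoblast markers 8 rose with differentiation, from 86.1 to 110 CPM in sum to 437 to 468 CPM, and the sum was 466 to 471 CPM in the knock-down, while the placental lactogen genes Prl3d1 and Prl3b1 and the spongiotrophoblast gene Tpbpa were at 0 in every library. Of 12 pluripotency markers 9 fell and 1 rose with differentiation, and 2 rose with the knock-down, with sums of 3946 to 4464, 2374 to 2888, 2578 to 2671 and 3205 to 3477 CPM.

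Lists for other cell types were read the same way and with the same limit, with sums again in the order mESC, untreated, NTC and knock-down. Of 9 tested extraembryonic endoderm markers 7 fell with differentiation, 3 were higher in NTC than in untreated cells, and 2 fell and 1 rose with the knock-down, with sums of 3822 to 3968, 1645 to 1898, 2568 to 2602 and 1997 to 2040 CPM. The basement membrane gene Lama1 was among those lower in both comparisons. Of 4 tested neural markers only the intermediate filament gene Nes rose with differentiation (4.19), and it fell with the knock-down (-2.20), while the tubulin gene Tubb3 rose there (0.52). The neural sums were 62.9 to 67.1, 215 to 224, 213 to 247 and 106 to 113 CPM. Of 6 tested endothelial markers 3 fell and 1, the VEGF receptor gene Flt1, rose with differentiation, 2 were higher in NTC than in untreated cells, and Flt1 alone fell with the knock-down. Their sums were 264 to 269, 142 to 160, 275 to 277 and 161 to 177 CPM. Of 3 tested blood markers 1, Runx1, fell with differentiation and 0 were called with the knock-down, and the sums were 50.6 to 56.1, 23.0 to 33.7, 30 to 33.4 and 24.9 to 27.0 CPM. Of 5 tested genes for sorting progenitors, Thy1 rose and Kit fell with differentiation, and 0 were called with the knock-down. In NTC 1 was higher than in untreated cells, and the sums were 393 to 399, 206 to 269, 260 to 270 and 248 to 270 CPM.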

How the data were processed

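The authors deposited 1 table of read counts, whole numbers for each RefSeq transcript with no sign of scaling. Libraries were made from poly(A) RNA and run on an Illumina Genome Analyzer IIx, per the labels' protocols. BWA 0.5.9, SAMtools 0.1.17 and edgeR 0.19 are listed, per the submitters' processing notes, with no role for any. The build, annotation release, counting program and strand were not given in the sources used here.

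Transcripts were named from a RefSeq table (28985), GENCODE vM21 metadata (173) or left as accessions (456). The row of highest total stood for each gene, since 15 imprinted genes had several rows, all identical in 4. Genes of low count were removed with filterByExpr. Libraries were scaled by TMM and fitted in R 4.3.3 with edgeR 4.0.16 over all 8 libraries with 1 mean per group (robust quasi-likelihood, 4 residual degrees of freedom, common dispersion 0.0133), with calls at an adjusted p under 0.05. Each SE is the absolute log2 fold change divided by the root of its F statistic. Levels per kilobase used GENCODE vM21 transcript lengths. For 0 counts in a group, 3 counts over the group gave a least fold, and for 1 to 3 counts the ratio has an exact 95% counting interval, which covers counting error only. On simulated data the fit recovered 20.9%, 23.9% and 37.3% of 1.5-fold changes for differentiation, knock-down and construct respectively. In the same order it recovered 70.1%, 65.7% and 80.6% of 2-fold and 87.9%, 93.9% and 89.4% of 4-fold changes. It called 3, 8 and 6 unchanged genes. Only 200 genes were changed there and all groups shared 1 dispersion trend, so these rates describe simpler data than the real libraries.

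The genes, lists and motifs were chosen with earlier results of these data known. Named were all 36 imprinted genes, 5 label checks, and from each list up to 6 called genes of smallest p per comparison. Alternatives were RLE factors, library totals, DESeq2 1.42.0, other filters, a fit of the compared groups, the library code as block, a 2-fold threshold, sums over rows, each library left out, untreated cells as control and, added after seeing the data, library totals without the 45S row.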

Additional observations from a re-analysis of the deposited data

How the results depend on the processing

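Of the alternatives run, those that changed the number of imprinted genes called by over 1.5 times were few, and their cause was not tested. Under RLE factors, library totals only, no filter, a filter at 5 CPM and sums over rows, each count stayed within that range. For untreated cells against mESC, lower calls were 1 in the main analysis, 2 with the library code as replicate block and 1 to 3 over the leave-outs. For knock-down against NTC, higher calls were 1, but 3 in the fit of the compared groups only and 1 to 2 over the leave-outs, and lower calls were 20 and 13 to 22 over the leave-outs. For NTC against untreated cells the calls, all of them higher, numbered 6, but 2 beyond 2-fold and 2 to 10 over the leave-outs (10 without either mESC library, 2 without NTC replicate 1, 3 without NTC replicate 2). For knock-down against mESC, lower calls were 3, but 1 beyond 2-fold and 2 to 6 over the leave-outs. Slc38a4 turned from a fall of 0.44 to a value of 0.024 with untreated cells as control (edgeR adjusted p = 0.929). DESeq2 called 19, 17, 6 and 18 imprinted genes in these 4 comparisons against 21, 21, 6 and 19 in the main analysis. With the replicate block 23, 23, 9 and 19 were called. Over all genes, in the same order, DESeq2 called 18.2%, 6.29%, 2.86% and 12.4%, and the replicate block 41.4%, 20.2%, 9.03% and 23.4%. For NTC against untreated cells, 10.4% and 10.6% of all tested genes were called without mESC replicate 1 and 2 respectively. Changes in these numbers are therefore not read as particular to imprinted genes. The replicate block added calls for knock-down against NTC of Usp29 (-0.49, edgeR adjusted p = 0.0179) and Peg10 (-0.30, edgeR adjusted p = 0.00971).

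The library codes are not said to be a batch. Deviations of libraries with the same code correlated at r = 0.265 across genes between mESC and untreated cells and at 0.0526 between NTC and knock-down cells, and genes are not independent replicates. Over all genes, knock-down against NTC gave 594 higher and 1404 lower calls, 355 and 870 by DESeq2, 1982 and 2434 in the compared groups only, 1054 and 1772 with the replicate block, 259 and 1154 with library totals only, and as few as 111 and 537 without knock-down replicate 2. For NTC against untreated cells, 542 higher and 155 lower became 493 and 18 with library totals only. Counts as low as those of Asb4, Magel2, Dcn, Zim1, Rtl1 and Ascl2 limit what could be detected.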

Other observations

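Some imprinted genes had further rows for other transcripts, and these values belong to no comparison above. The Gnas row NM_019690 stood at 46.9 and 68.4 CPM in mESC, 78.8 and 83.1 in untreated, 98.6 and 84.9 in NTC and 51.8 and 41.1 in knock-down cells, below the 164 to 454 CPM of the row used for Gnas. The Sfmbt2 row NM_001198809 stood at 8.70 and 32.4 CPM in mESC, 11.4 and 12.8 in untreated, 11.6 and 10.5 in NTC and 19.3 and 18.7 in knock-down cells. For H13, the signal peptide peptidase gene, the row NM_001159553 stood at 32.6 and 31.7 CPM in NTC and 22.4 and 19.1 CPM in knock-down cells, and the row used at 123 and 122 against 101 and 106 CPM. The retrogene Mcts2 lies within H13, and its counts were 0.240 and 0.270 of H13 counts in NTC cells.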
